A study of Homo sapiens with 27 samples.

Results

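NDUFA4L2 and NDUFA4 are paralogous genes that encode small mitochondrial proteins, and they are 2 of the 20268 protein-coding genes counted in this study. They were taken by name. NDUFA4L2 was chosen by its measured log2 fold change, the lowest among genes above the expression filter (2 CPM in every library of a line), with CPSF1 shRNA in LNCaP and in 22Rv1 cells, and NDUFA4 was added because it is the paralog. The study knocked down CPSF1, the large scaffold subunit of the cleavage and polyadenylation specificity factor, in 3 prostate cancer cell lines, and asked by RNA-seq which genes depend on it. LNCaP is a hormone-sensitive line, while LNCaP95 and 22Rv1 are hormone-insensitive. Lentivirus brought either a non-targeting hairpin (CTRL sh) or a hairpin against CPSF1 into the cells. The CPSF1 hairpins were 2, named CPSF1 sh1 and CPSF1 sh2. After selection with puromycin and expansion, 500000 cells were seeded in a well and collected 72 h later. With 3 replicates in each of 9 groups there were 27 libraries. The control cells therefore carry an integrated hairpin and were selected as well, and cells of all groups are stably infected populations in culture. LNCaP95 cells were grown in medium without phenol red and the other lines in medium with it, so that line and medium cannot be told apart.

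NDUFA4 was first described as a subunit of complex I of the respiratory chain and is now placed in complex IV, cytochrome c oxidase, the enzyme that passes electrons to oxygen. It is made constitutively in most cells with a working respiratory chain. NDUFA4L2 is induced through hypoxia-inducible factors (HIF), transcription factors whose alpha subunits are destroyed in the presence of oxygen and of the VHL protein. It is known for lowering respiration and reactive oxygen species in hypoxic cells and for its high level in kidney cancers that have lost VHL. The third member of the family, C15orf48 (NMES1), is known from inflamed tissue, where it can take the place of NDUFA4 in complex IV.

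In the GRCh37 coordinates of the deposited table, NDUFA4L2 lies on the minus strand of chromosome 12 from 57628686 to 57634498, with 2402 bp of exons in 6 blocks. NDUFA4 lies on the minus strand of chromosome 7 from 10971578 to 10979883, with 2576 bp of exons in 5 blocks. In the GENCODE annotation lifted to GRCh37, the transcript NDUFA4-201 encodes 81 residues, and both NDUFA4L2-201 and NDUFA4L2-202 encode 87 residues. These transcripts of NDUFA4L2 start at separate sites. Since HIF binds the core sequences ACGTG and GCGTG, the 250 bases before each start are printed, on the minus strand of GRCh37 and 5′ to 3′, with matches to either core on either strand in capitals. The windows are chr12:57630888-57631137 for NDUFA4L2-202, chr12:57634476-57634725 for NDUFA4L2-201 and chr7:10979781-10980030 for NDUFA4-201.
NDUFA4L2-202: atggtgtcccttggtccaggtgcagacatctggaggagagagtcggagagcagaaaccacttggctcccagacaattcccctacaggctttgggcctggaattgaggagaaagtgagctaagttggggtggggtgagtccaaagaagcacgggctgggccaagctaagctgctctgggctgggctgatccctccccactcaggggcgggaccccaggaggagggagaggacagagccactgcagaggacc
NDUFA4L2-201: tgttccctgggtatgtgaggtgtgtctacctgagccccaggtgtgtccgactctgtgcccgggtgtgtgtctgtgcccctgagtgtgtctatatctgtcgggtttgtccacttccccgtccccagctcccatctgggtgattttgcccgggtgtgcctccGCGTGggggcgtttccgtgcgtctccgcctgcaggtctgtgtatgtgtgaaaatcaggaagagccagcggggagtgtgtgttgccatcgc
NDUFA4-201: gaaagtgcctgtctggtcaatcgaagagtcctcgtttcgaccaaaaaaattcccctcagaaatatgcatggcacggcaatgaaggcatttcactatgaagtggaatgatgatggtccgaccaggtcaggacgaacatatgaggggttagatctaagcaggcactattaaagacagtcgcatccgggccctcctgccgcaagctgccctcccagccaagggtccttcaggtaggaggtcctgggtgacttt
The window of NDUFA4L2-201 held 1 match, a GCGTG that begins 90 bases before the start, and the other windows held none. Of 35116 RefSeq promoter windows of the same length, 43.21% held at least 1 match, so that a match in 1 of these windows is a common event. These counts describe letters in short windows and say nothing of sites farther away.

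CPSF1 acts at the ends of transcripts, where the factor to which it belongs recognises the hexamer AATAAA. For NDUFA4-201 30 bases around the hexamer, and for NDUFA4L2-202 the last 30 annotated bases, are therefore printed on the minus strand of GRCh37, with the hexamer in capitals.
NDUFA4-201, chr7:10971580-10971609: taagcaactccaAATAAAtgctacattaag
NDUFA4L2-202, chr12:57628686-57628715: gcaaaatacaatttcatttaacaaattgaa
In NDUFA4-201 the hexamer ends 22 bases before the annotated end. The last 50 bases of NDUFA4L2-202 and of NDUFA4L2-201 held neither AATAAA nor its common variant ATTAAA. Other variants of the hexamer were not searched for, so a lack of any signal cannot be read from this. Among 47601 annotated coding transcripts, 52.8% held AATAAA in that window, 12.4% only ATTAAA and 34.8% neither. The match to a hexamer is a description of the annotated end, and where these transcripts were cleaved in the cells was not measured in these libraries.

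The libraries held 8515624 to 15904518 counts on genes (median 11058723). CPSF1 mRNA, the target, lay in each line below all CTRL sh libraries in all 6 CPSF1 sh libraries. The same held for 27.7% of genes in LNCaP, 30.3% in LNCaP95 and 15.2% in 22Rv1. The group means of CPSF1 with a hairpin were 53.9 to 72.4% of control. The prostate luminal markers HOXB13, KLK3, FOLH1, KRT8 and KRT18 were at 37.3 CPM (counts relative to library size) or more in every library. Of the markers of other cells, KRT5, TP63, PTPRC and COL1A2 stayed at 0.38 CPM or less and KRT14 at 6.29 CPM or less, while COL1A1 was at 10.4 to 72.8 CPM. CPM are given relative to library sizes scaled by TMM within each line, and both paralogs passed the minimum of 2 CPM in all 27 libraries.

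In control cells NDUFA4L2 stood high in LNCaP and LNCaP95 and lower in 22Rv1. Its normalized level was 195, 200.2 and 178 CPM in the LNCaP CTRL sh libraries, 157, 125 and 143 CPM in LNCaP95 and 47.4, 58.8 and 47.4 CPM in 22Rv1. The ranges of the 3 lines did not overlap, and every 22Rv1 library lay below all others, but how many genes are apart in this way was not counted. In a fit of all 27 libraries, the control level of NDUFA4L2 was lower in 22Rv1 than in LNCaP by a log2 difference of -1.90 (SE 0.154) and lower than in LNCaP95 by -1.45 (SE 0.156). The difference between LNCaP95 and LNCaP was -0.45 (SE 0.137). The LNCaP and 22Rv1 control libraries are part of the comparison by which NDUFA4L2 was chosen, so its control levels are a description, without a test. Most genes differ between these lines at an adjusted p below 0.05 (80.3% of 10317 genes between LNCaP95 and LNCaP, 82.5% between 22Rv1 and LNCaP and 84.3% between 22Rv1 and LNCaP95).

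NDUFA4 had the opposite order. It was at 166.6 ± 2.38 CPM (SD, n = 3) in LNCaP, 192.6 ± 0.434 CPM in LNCaP95 and 231.1 ± 12.6 CPM in 22Rv1 cells with CTRL sh. The control level of NDUFA4 was higher in LNCaP95 than in LNCaP by 0.19 on the log2 scale (SE 0.042, adjusted p = 1.80e-04), in 22Rv1 than in LNCaP by 0.47 (SE 0.042, adjusted p = 8.91e-12) and in 22Rv1 than in LNCaP95 by 0.28 (SE 0.042, adjusted p = 2.49e-07). Its steps between lines were thus small beside those of NDUFA4L2. Divided by the length of all annotated exons, the level of NDUFA4L2 was 79.5 ± 4.76 CPM per kb against 64.7 ± 0.924 for NDUFA4 in LNCaP CTRL sh, 58.8 ± 6.71 against 74.8 ± 0.168 in LNCaP95 and 21.3 ± 2.74 against 89.7 ± 4.88 in 22Rv1. With the shorter lengths of NDUFA4L2-202 (943 bp) and NDUFA4-201 (2035 bp), NDUFA4L2 was also above NDUFA4 in LNCaP95 (149.9 ± 17.1 against 94.6 ± 0.213 CPM per kb). Which paralog is the more abundant in LNCaP95 control cells therefore depends on the length used, and in 22Rv1 NDUFA4 was above NDUFA4L2 with either length.

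CPSF1 knockdown in LNCaP cells went with a very low level of NDUFA4L2. Raw counts of NDUFA4L2 were 2073, 2391 and 2032 in the CTRL sh libraries, 49, 46 and 71 with CPSF1 sh1 and 102, 314 and 159 with CPSF1 sh2. All 6 knockdown libraries lay far below all 3 controls, and the libraries with CPSF1 sh1 lay below those with CPSF1 sh2 (hairpin groups that do not overlap, in either direction, are found for 30.5% of genes). The control mean was 191.0 ± 11.4 CPM (SD, n = 3). CPSF1 sh1 left 5.64 ± 1.402 CPM, or 2.95% of it, and CPSF1 sh2 left 15.1 ± 7.20 CPM, or 7.90%. Pooling the hairpins, the log2 fold change was -4.12 (SE 0.242), the lowest of 11096 genes, and the next was FAM65B at -3.21. With edgeR's own, looser filter NDUFA4L2 was at place 3 from the lowest of 12873 genes, and among the 17516 genes with at least 1 count at place 6. This contrast is the one that picked NDUFA4L2, so the value is a description without a test, and nothing is read from the 27.7% of genes whose knockdown libraries all lay below the controls. The pooled value was -4.58 without the second CPSF1 sh2 library, the highest of the knockdown libraries.

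**Figure D1:**
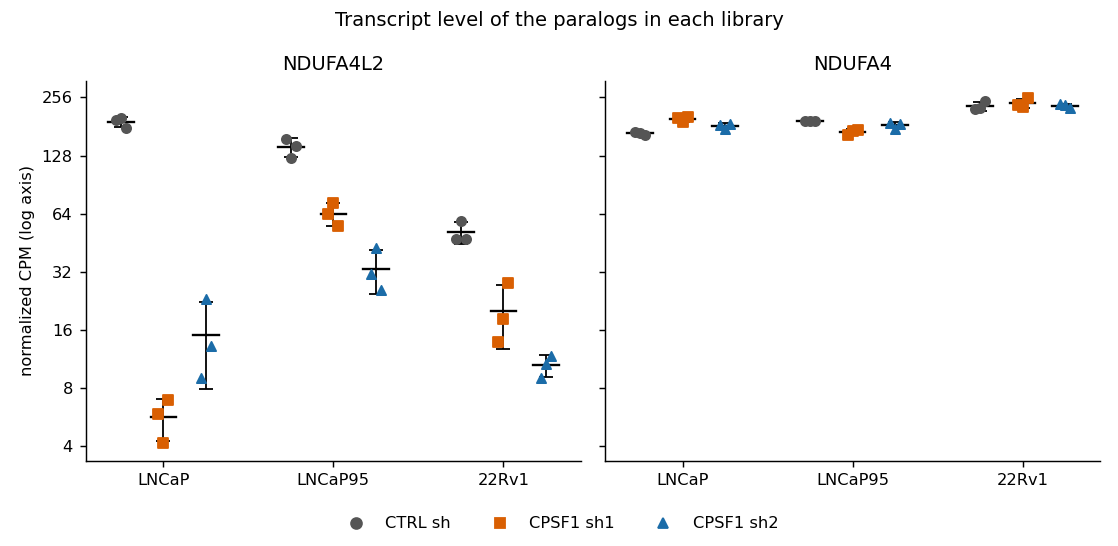
Normalized CPM of NDUFA4L2 (left) and NDUFA4 (right) on a log axis, with 1 point per library, horizontal lines at the group means and error bars of 1 SD (n = 3). NDUFA4L2 runs from about 200.2 CPM in LNCaP CTRL sh down to 4.14 CPM in LNCaP CPSF1 sh1, while every library of NDUFA4 sits between 164 and 253 CPM.

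In 22Rv1 cells NDUFA4L2 started lower and the gap was smaller. Counts were 575, 641 and 448 with CTRL sh, 150, 191 and 288 with CPSF1 sh1 and 100, 102 and 127 with CPSF1 sh2. The 6 knockdown libraries again lay below the 3 controls, without overlap, as did those of 15.2% of genes. The means were 51.2 ± 6.58, 20.01 ± 7.29 and 10.5 ± 1.36 CPM, so that 39.1% of the control level of NDUFA4L2 was left with CPSF1 sh1 and 20.5% with CPSF1 sh2. The pooled log2 fold change was -1.75 (SE 0.229), again the lowest of the line (11728 genes) and again without a test. It was at place 4 of 13423 genes with the looser filter and at place 234 of the 17459 genes with at least 1 count. Above the 2 CPM filter the next gene, NMB, was at -1.69, which is within the SE of NDUFA4L2, so its first place there is a narrow one.

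LNCaP95 was not used to pick the gene, and NDUFA4L2 fell there too. Counts were 2167, 1387 and 1455 with CTRL sh, 1048, 1059 and 714 with CPSF1 sh1 and 337, 516 and 282 with CPSF1 sh2. The 3 groups formed 3 separate steps, with all knockdown libraries below the controls (30.3% of genes) and every CPSF1 sh2 library below every CPSF1 sh1 library (hairpin groups apart in either direction in 49.3% of genes). The means of NDUFA4L2 were 141.3 ± 16.1, 63.8 ± 8.64 and 33.1 ± 8.57 CPM, or 45.2% and 23.5% of control. The pooled log2 fold change was -1.53 (SE 0.237, 95% interval -2.04 to -1.01, adjusted p = 1.04e-04). Of the 11143 genes tested in LNCaP95, 33.7% were called lower, and NDUFA4L2 had the 59th lowest value. With CPSF1 sh1 alone NDUFA4L2 fell by 1.15 on the log2 scale (SE 0.106, adjusted p = 7.21e-09) and with CPSF1 sh2 alone by 2.09 (SE 0.119, adjusted p = 1.94e-12), in fits where 33.3% and 36.9% of genes were called lower.

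Over all 9 groups, the mean of NDUFA4L2 was highest in LNCaP CTRL sh, followed by LNCaP95 CTRL sh, LNCaP95 CPSF1 sh1, 22Rv1 CTRL sh, LNCaP95 CPSF1 sh2, 22Rv1 CPSF1 sh1, LNCaP CPSF1 sh2, 22Rv1 CPSF1 sh2 and LNCaP CPSF1 sh1. Neighbours overlapped in range between LNCaP95 CPSF1 sh1 and 22Rv1 CTRL sh (55.1 to 72.4 against 47.4 to 58.8 CPM) and from LNCaP95 CPSF1 sh2 down to 22Rv1 CPSF1 sh2, where each group overlapped the next. The line with the second-highest control level thus kept the most NDUFA4L2 after knockdown, and LNCaP went from the highest level to the lowest. The pooled effect was nearer to 0 than in LNCaP by 2.76 on the log2 scale in LNCaP95 and by 2.55 in 22Rv1. From LNCaP95 to 22Rv1 it differed by -0.21. These differences in NDUFA4L2 contain the contrasts that picked it and carry no test.

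NDUFA4 moved little, and not the same way in every line. In LNCaP its level was 169, 167 and 164 CPM with CTRL sh, 201, 191 and 202 CPM with CPSF1 sh1 and 185, 175 and 185 CPM with CPSF1 sh2. All 6 knockdown libraries lay above all 3 controls, as did those of 27.9% of genes. The pooled log2 fold change of NDUFA4 was 0.19 (SE 0.045, adjusted p = 0.00206), a rise in a line where 31.1% of genes were called higher. In LNCaP95 it was 192.5, 192 and 193 CPM with CTRL sh, 164, 171 and 175 CPM with CPSF1 sh1 and 189, 176 and 187 CPM with CPSF1 sh2. All 6 knockdown libraries lay below the controls, as in 30.3% of genes, and the CPSF1 sh2 libraries at 189 and 187 CPM came close to them. The pooled change of NDUFA4 in LNCaP95 was -0.12 (SE 0.049, adjusted p = 0.0428). That call was lost with library sizes that were not scaled (-0.035, adjusted p = 0.502) and without any 1 of 7 of the 9 libraries, where the adjusted p rose to between 0.0679 and 0.108.

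In 22Rv1 the groups overlapped. NDUFA4 was at 223, 225 and 246 CPM with CTRL sh, 233, 228 and 253 CPM with CPSF1 sh1 and 236, 232 and 227 CPM with CPSF1 sh2. The pooled log2 fold change of NDUFA4 was 0.024 (95% interval -0.076 to 0.13, adjusted p = 0.737), where 26.9% of genes were called in either direction. An effect beyond that interval is thus not what these libraries show for NDUFA4, in a line where the estimate for NDUFA4L2 was -1.75. The knockdown effect on NDUFA4 differed between lines in the fit of all 27 libraries, by -0.29 from LNCaP to LNCaP95 (SE 0.052, adjusted p = 1.63e-05), by -0.15 from LNCaP to 22Rv1 (SE 0.051, adjusted p = 0.0167) and by 0.14 from LNCaP95 to 22Rv1 (SE 0.051, adjusted p = 0.0163). At that threshold 59.7, 50.3 and 61.6% of 10317 genes differed. The last difference was not called with unscaled library sizes (adjusted p = 0.227) or without the first or the second 22Rv1 CTRL sh library (adjusted p = 0.0673 and 0.0566), and the difference between 22Rv1 and LNCaP was not called without the third 22Rv1 CTRL sh library (adjusted p = 0.0987). Processed pseudogenes of NDUFA4 are annotated, and how reads that fit more than 1 place were counted is not given in the sources used here.

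**Figure D2:**
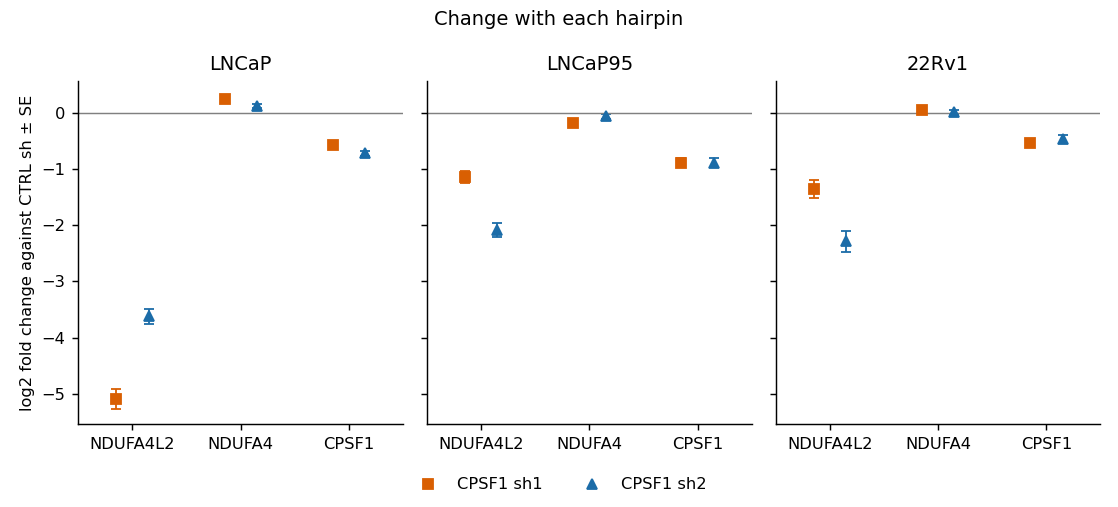
Log2 fold change against CTRL sh of NDUFA4L2, NDUFA4 and CPSF1 with each hairpin, in 1 panel per line, as edgeR estimates with bars of 1 SE from 3 against 3 libraries. NDUFA4L2 is lowest in LNCaP (-5.09 with CPSF1 sh1 and -3.62 with CPSF1 sh2), and the order of the hairpins in LNCaP is the reverse of that in the other lines, whereas NDUFA4 stays within 0.25 of 0 throughout.

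The hairpins differed from each other in their effect on NDUFA4L2, and the direction depended on the line. The LNCaP and 22Rv1 knockdown libraries are part of the comparison by which NDUFA4L2 was chosen. That comparison pooled the hairpins and did not use their difference, but how far the choice affects the p-values below was not tested. In LNCaP the level of NDUFA4L2 was higher with CPSF1 sh2 than with CPSF1 sh1, by 1.47 on the log2 scale (SE 0.268, 95% interval 0.91 to 2.03, adjusted p = 9.13e-04). This was the highest value of 11096 genes above the filter, of which 6.53% were called higher. That place depends on the filter, and how far the choice of NDUFA4L2 favours it was not tested. Counted from the lowest, it was 12860 of 12873 genes with edgeR's looser filter and 16799 of the 17516 genes with at least 1 count. In LNCaP95 the level of NDUFA4L2 was lower with CPSF1 sh2, by -0.94 (SE 0.125, adjusted p = 1.12e-05, 17.7% of genes called lower). In 22Rv1 NDUFA4L2 was lower with CPSF1 sh2 as well, by -0.93 (SE 0.209, adjusted p = 0.0109, 5.85% of genes called lower). That call was lost without the first 22Rv1 CPSF1 sh2 library, where the difference was -0.83 and the adjusted p was 0.0640. The size also leaned on the third 22Rv1 CPSF1 sh1 library, with 288 counts against 150 and 191. Over all genes that library stood apart from its replicates (chi-square per degree of freedom 6.98 and 4.37, against 1.92 between the others). Without it NDUFA4L2 went from place 8 from the lowest of 11728 genes to place 54 of 11744.

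The reversal itself was tested in the fit of all 27 libraries. The choice of NDUFA4L2 by LNCaP and 22Rv1 libraries limits these tests as well. The hairpin difference of NDUFA4L2 was lower in LNCaP95 than in LNCaP by -2.41 on the log2 scale (SE 0.364, adjusted p = 1.44e-05) and lower in 22Rv1 than in LNCaP by -2.39 (SE 0.423, adjusted p = 2.90e-04). Both were the lowest values of 10317 genes, of which 10.3% were called lower in the first and 7.59% were called in either direction in the second. These places depend on the filter: with edgeR's looser one they were 49 and 43 from the lowest of 14441 genes. How far the choice of NDUFA4L2 favours such places was not tested. Between 22Rv1 and LNCaP95 the difference was 0.015 (95% interval -0.68 to 0.70, adjusted p = 0.982, 18.1% of genes called), an interval that leaves room for a change of either sign. The log2 difference of CPSF1 mRNA between CPSF1 sh2 and CPSF1 sh1 was -0.14 in LNCaP (95% interval -0.25 to -0.032, adjusted p = 0.0773), 0.00041 in LNCaP95 (-0.17 to 0.18, adjusted p = 0.998) and 0.067 in 22Rv1 (-0.080 to 0.21, adjusted p = 0.578). None passed the test after adjustment, although the interval in LNCaP does not include 0, and the part of residual CPSF1 in the hairpin difference of NDUFA4L2 was not tested.

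NDUFA4 rose in LNCaP with each hairpin, by 0.25 with CPSF1 sh1 (SE 0.038, adjusted p = 9.97e-06) and 0.13 with CPSF1 sh2 (SE 0.037, adjusted p = 0.00596), where 31.2% and 32.1% of genes were called higher. In LNCaP95 it fell with CPSF1 sh1, by 0.18 (SE 0.042, adjusted p = 7.01e-04), and was at -0.064 with CPSF1 sh2 (adjusted p = 0.174). The level with CPSF1 sh2 was lower than with CPSF1 sh1 in LNCaP by -0.12 (SE 0.037, adjusted p = 0.0311) and higher in LNCaP95 by 0.12 (SE 0.042, adjusted p = 0.0360), where 8.24% and 16.5% of genes were called in those directions. In 22Rv1 it differed by -0.040 (95% interval -0.15 to 0.066, adjusted p = 0.654). Neither call was stable: in LNCaP it was lost without the first or the third CPSF1 sh1 or the second CPSF1 sh2 library (adjusted p = 0.0843, 0.0894 and 0.168), and in LNCaP95 without the first or the second CPSF1 sh1 or the first or the third CPSF1 sh2 library (adjusted p = 0.138, 0.0638, 0.124 and 0.132). The signs in LNCaP and LNCaP95 are opposite to those of NDUFA4L2. The hairpin difference of NDUFA4 was larger in LNCaP95 than in LNCaP by 0.23 (SE 0.059, adjusted p = 0.00499, 9.75% of genes called higher). It was not called between 22Rv1 and LNCaP (0.081, adjusted p = 0.466) or between 22Rv1 and LNCaP95 (-0.15, adjusted p = 0.0653), although the latter was called without the second LNCaP95 CPSF1 sh2 or the first or second 22Rv1 CPSF1 sh1 library (adjusted p = 0.0387, 0.0446 and 0.0376).

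The ratio of NDUFA4L2 counts to NDUFA4 counts within a library does not depend on the scaling between libraries. In LNCaP it was 1.15, 1.202 and 1.09 with CTRL sh, 0.0292, 0.0216 and 0.0343 with CPSF1 sh1 and 0.0489, 0.132 and 0.0712 with CPSF1 sh2. In LNCaP95 it was 0.814, 0.648 and 0.739 with CTRL sh, 0.390, 0.423 and 0.316 with CPSF1 sh1 and 0.166, 0.241 and 0.137 with CPSF1 sh2. In 22Rv1 it was 0.213, 0.261 and 0.193 with CTRL sh, 0.0592, 0.0796 and 0.111 with CPSF1 sh1 and 0.0383, 0.0459 and 0.0518 with CPSF1 sh2. In every line the control libraries had the highest ratios, and the hairpin groups did not overlap with each other (for single genes this holds in 28.6% of genes in 22Rv1). On the log2 scale, with 0.5 added to each count, the mean ratio of NDUFA4L2 to NDUFA4 was lower with knockdown by -1.51 in LNCaP95 (exact permutation test, two-sided, p = 0.0238 over 84 splits, of which the smallest possible p is 0.0119). Without the first or the third LNCaP95 CTRL sh library the exact p was 0.0714. The differences in LNCaP (-4.62) and 22Rv1 (-1.87) contain the contrasts that picked NDUFA4L2 and were not tested. From CPSF1 sh1 to CPSF1 sh2 the log2 ratio changed by 1.46 in LNCaP, while the values were -1.08 for LNCaP95 and -0.84 for 22Rv1, and each exact permutation p was 0.1, the smallest that 3 against 3 libraries allow.

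**Figure D3:**
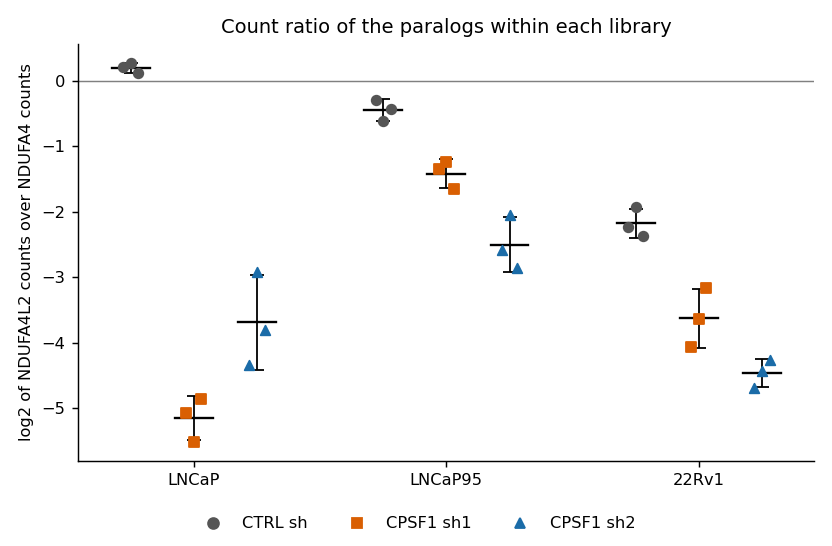
Log2 of the NDUFA4L2 count over the NDUFA4 count (0.5 added to each), with 1 point per library, lines at the group means and bars of 1 SD (n = 3). The LNCaP CTRL sh libraries lie just above 0, all others below, and CPSF1 sh2 lies above CPSF1 sh1 in LNCaP but below it in LNCaP95 and 22Rv1.

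NDUFA4L2 is 1 of many genes that HIF induces, and most of the listed others fell with CPSF1 knockdown too. Of a list of HIF targets that act on mitochondria, 7 of 8 passed the expression filter in LNCaP, where 6 were called lower and 1 higher, with a median log2 fold change of -0.99 against about 0 for all genes (31.0% of genes called lower). PDK1, the kinase that shuts pyruvate out of the citric acid cycle, had a control mean of 148.2 ± 14.6 CPM in LNCaP, which CPSF1 sh1 brought to 50.4 ± 2.93 CPM and CPSF1 sh2 to 62.2 ± 5.02 CPM, a log2 fold change of -1.39 (SE 0.086, adjusted p = 6.27e-09). BNIP3, a receptor for mitophagy, fell by 0.99 on the log2 scale (SE 0.064, adjusted p = 9.65e-09). The member called higher was HIGD1A, another small mitochondrial protein of the HIF response, at 0.27. Among the other HIF targets, 13 of 14 tested in LNCaP were called lower and none higher, with a median of -0.82. The lowest of them was PFKFB4, which makes the activator of phosphofructokinase, at -1.90. That every listed HIF target lay above the -4.12 of NDUFA4L2 follows from how NDUFA4L2 was chosen.

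In LNCaP95 NDUFA4L2 lay within the range of these genes, toward its low end. Of the HIF targets acting on mitochondria 6 of 7 were called lower (median -1.05), and of the other HIF targets all 16 tested (median -1.34), where 33.7% of all genes were called lower. NDUFA4L2, at -1.53, lay below both medians and below every tested HIF target acting on mitochondria (lowest -1.29). Among the other HIF targets it lay above ANKRD37, a hypoxia-induced ankyrin protein (-3.28), LOX, which cross-links collagen (-1.92), PFKFB4 (-1.72) and NDRG1 (-1.69). In 22Rv1, where NDUFA4L2 was at -1.75, 5 of 7 and 11 of 15 were called lower (14.3% of all genes), with medians of -0.27 and -0.31. The lowest listed HIF targets in 22Rv1 were PDK1 at -0.88, BNIP3 at -0.79 and LOX at -0.79. The medians of both HIF lists kept their direction with RLE size factors, unscaled library sizes and DESeq2.

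**Figure D4:**
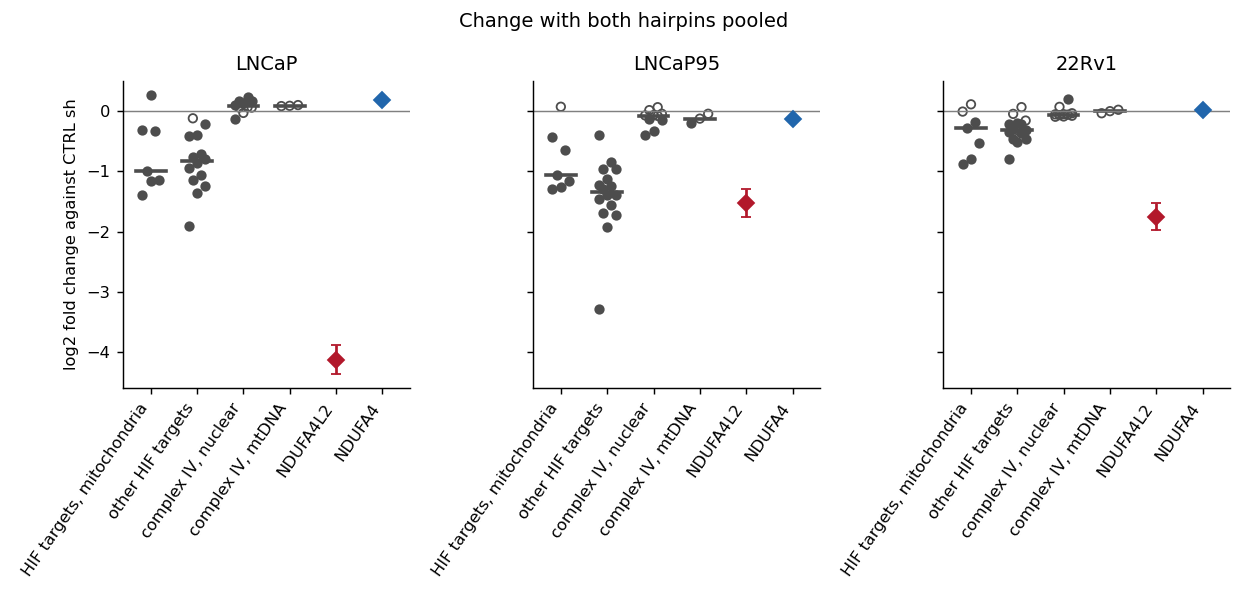
Log2 fold change with both hairpins pooled for the listed HIF targets and complex IV subunits (grey points, filled where the adjusted p is below 0.05, lines at the list medians) and for NDUFA4L2 and NDUFA4 (diamonds with bars of 1 SE), in 1 panel per line. NDUFA4L2, chosen for the lowest value in LNCaP and 22Rv1, by that choice lies below every listed HIF target there, in LNCaP95 it lies among them, and NDUFA4 lies among the complex IV subunits in all 3 lines.

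The control levels of these genes were ordered differently from that of NDUFA4L2. All 7 HIF targets acting on mitochondria and all 13 other HIF targets tested in every library were called higher in LNCaP95 than in LNCaP control cells (41.0% of genes called higher), with median log2 differences of 0.66 and 1.39. PDK1 was higher by 0.80 (SE 0.065, adjusted p = 1.11e-12) and P4HA1, a collagen prolyl hydroxylase, by 1.44 (SE 0.053, adjusted p = 2.55e-21), while the estimate for NDUFA4L2 had the opposite sign (-0.45). CA9, carbonic anhydrase of the cell surface, had 531 to 814 counts in LNCaP95 CTRL sh, 8 to 15 in LNCaP and 0 to 2 in 22Rv1. Between 22Rv1 and LNCaP, 6 of 7 and 11 of 13 were called lower (41.4% of genes called lower), and NDUFA4L2 was at -1.90. Of the HIF subunits, HIF1A mRNA was at 220.9 ± 1.43, 310.5 ± 13.4 and 180.7 ± 1.498 CPM in LNCaP, LNCaP95 and 22Rv1 control cells. EPAS1 mRNA, which encodes the other main alpha subunit, was at 50.1 ± 3.50 CPM in LNCaP95 and at 1.63 ± 0.407 and 3.18 ± 0.214 CPM in LNCaP and 22Rv1, under the filter there. The log2 fold change of HIF1A with knockdown was 0.098 in LNCaP, a small rise (adjusted p = 0.0349). In LNCaP95 HIF1A fell, at -0.24 (adjusted p = 0.0332), and in 22Rv1 it was at -0.0099 (adjusted p = 0.922). HIF activity is set largely by protein stability, which these libraries do not measure.

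NDUFA4 lay within the range of the other nuclear-encoded subunits of complex IV in each line. In LNCaP 5 of the 10 nuclear-encoded subunits tested were called higher and 1 lower (31.1% and 31.0% of all genes), with a median of 0.084 and a range of -0.12 to 0.23, and NDUFA4 was at 0.19. In LNCaP95 none was called higher and 4 were called lower (median -0.074, against 33.2% and 33.7% of all genes), with NDUFA4 at -0.12, although with unscaled library sizes the median turned to 0.012 and 2 were called lower and 1 higher. In 22Rv1 1 was called higher, COX6C at 0.20, and none lower (median -0.055, against 12.7% and 14.3% of all genes), with NDUFA4 at 0.024. The call of COX6C was lost without the first or the second CTRL sh library, and 4 subunits were called lower without the third CPSF1 sh1 library. The other 6 listed nuclear subunits, among them COX4I2, the form of subunit 4 that HIF can induce, did not pass the filter, and COX4I2 had 0 counts in all 27 libraries. COX4I1, the constitutive form, changed by 0.10 in LNCaP. The subunits encoded by mitochondrial DNA, MT-CO1, MT-CO2 and MT-CO3, were at 0.085 to 0.10 in LNCaP with the hairpins pooled, without a call. With CPSF1 sh1 they were at 0.19 to 0.21 there, and all 3 were called higher (31.2% of all genes). In LNCaP95 they were at -0.20 to -0.043 pooled, with MT-CO2 called lower, and all 3 were called lower with CPSF1 sh1 (33.3% of all genes). Between the hairpins all 3 were called lower with CPSF1 sh2 in LNCaP (8.24% of all genes) and higher in LNCaP95 (16.5%), the signs of NDUFA4. For the 37 nuclear-encoded subunits of complex I, to which NDUFA4 was once assigned, 17 were called higher and 6 lower in LNCaP (median 0.11), 2 and 13 in LNCaP95 (median -0.060, or 0.027 with unscaled library sizes) and 3 and 4 in 22Rv1 (median -0.0032, or 0.0073 with unscaled library sizes). Set against the shares of all genes just given, the 13 of 37 called lower in LNCaP95 are near the background, while the 2 called higher there are below it (33.2% of all genes). In LNCaP the 17 called higher are above the background (31.1%) and the 6 called lower are below it (31.0%). The counts in 22Rv1 are a little below it (12.7% and 14.3%). No set test was run.

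Between the hairpins, the large gap of NDUFA4L2 in LNCaP was not shared by the listed HIF targets. With CPSF1 sh2 against CPSF1 sh1 in LNCaP, 2 of 7 HIF targets acting on mitochondria and 5 of 14 others were called higher and none lower (6.53% and 8.24% of all genes), with medians of 0.035 and 0.15 against 1.47 for NDUFA4L2. PDK1 was higher by 0.30 (SE 0.076, adjusted p = 0.0107). In LNCaP95, 6 of 7 and 15 of 16 were called lower with CPSF1 sh2 (17.7% of all genes), with medians of -0.43 and -0.62 against -0.94 for NDUFA4L2. The listed HIF targets called in LNCaP thus had the sign of NDUFA4L2 with a smaller size, and HIGD1A was the one called higher in LNCaP95, at 0.13. HIF1A mRNA went the other way in LNCaP95, higher with CPSF1 sh2 by 0.35 (SE 0.042, adjusted p = 3.56e-06). In 22Rv1, 1 of 7 and 2 of 15 were called lower (5.85% of all genes, medians -0.087 and -0.062), against -0.93 for NDUFA4L2. The hairpin difference was lower in LNCaP95 than in LNCaP for 5 of 7 and 11 of 13 HIF targets (medians -0.57 and -0.72, 10.3% of all genes), with -2.41 for NDUFA4L2 and -0.90 for PDK1 (SE 0.108, adjusted p = 4.33e-07).

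**Figure D5:**
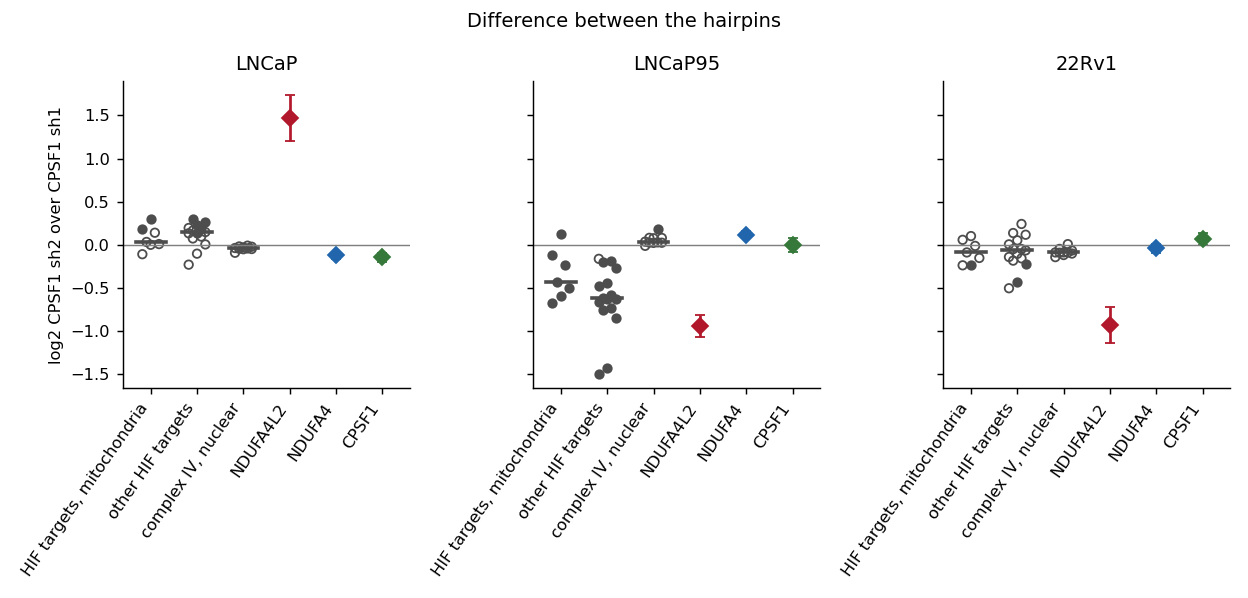
Log2 ratio of CPSF1 sh2 to CPSF1 sh1 for listed HIF targets and nuclear-encoded complex IV subunits (grey points, filled where the adjusted p is below 0.05, lines at the list medians) and for NDUFA4L2, NDUFA4 and CPSF1 (diamonds with bars of 1 SE), in 1 panel per line. NDUFA4L2 is at 1.47 in LNCaP and at -0.94 and -0.93 in LNCaP95 and 22Rv1, far from the HIF targets in LNCaP and 22Rv1 and within their range in LNCaP95, while NDUFA4 and CPSF1 stay near 0.

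The genes beside NDUFA4L2 changed in both directions, in the fits by less than NDUFA4L2 in each line. For genes that fell in LNCaP and 22Rv1, the smaller size follows from how NDUFA4L2 was chosen. SHMT2, the mitochondrial serine hydroxymethyltransferase, lies on the plus strand and overlaps the 3′ end of NDUFA4L2 by 33 bp. It had 3934 to 11664 counts per library and fell in all lines, with log2 fold changes of -0.26 for LNCaP, -0.54 for LNCaP95 and -0.23 for 22Rv1 (adjusted p = 0.00163, 2.42e-06 and 0.00582). The counting used strand, so reads of SHMT2 were assigned apart from those of NDUFA4L2. NXPH4, on the plus strand 8453 bp from NDUFA4L2, fell as well, at -0.95 for LNCaP (SE 0.055), -1.42 for LNCaP95 (SE 0.163) and -0.69 for 22Rv1 (SE 0.176). The value of NXPH4 in LNCaP95 lay within the SE of that of NDUFA4L2. STAC3, on the same strand as NDUFA4L2 and 2737 bp upstream of it, was higher by 0.61 in LNCaP (SE 0.175, adjusted p = 0.00706) and by 1.22 in 22Rv1 (SE 0.188, adjusted p = 4.00e-04), from means of 2.87 and 2.27 CPM in control cells. It was under the filter in LNCaP95, with 11 to 14 counts in control and 33 to 45 in knockdown libraries, or a control mean of 1.05 CPM against 2.95 CPM for CPSF1 sh1 and 3.48 CPM for CPSF1 sh2, a change that was not fitted and in size is not smaller than that of NDUFA4L2 there. R3HDM2, the next gene on that side, was at -0.15 in LNCaP, 0.0017 in LNCaP95 and 0.16 in 22Rv1, and was called in LNCaP alone (adjusted p = 0.0113). Beside NDUFA4, PHF14, a chromatin protein 33615 bp away, rose, at 0.55 for LNCaP, 0.69 for LNCaP95 and 0.29 for 22Rv1 (SE 0.046, 0.076 and 0.057).

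Among the 10316 other genes tested in all 27 libraries, those whose profile was most like that of NDUFA4L2 were sought by Pearson's r of log2 CPM after subtracting the control mean of each line. The highest were PPFIA4, a scaffold protein of the liprin family (r = 0.977), ATG16L2, a relative of the autophagy protein ATG16L1 (0.958), the histone methyltransferase WHSC1 (0.944), ASMTL (0.942) and HAUS4, of the spindle complex augmin (0.940). PPFIA4 also had its lowest mean with CPSF1 sh1 in LNCaP, at 4.01 ± 0.443 CPM against 47.1 ± 5.10 CPM in control and 6.92 ± 0.742 CPM with CPSF1 sh2, and in LNCaP95 it was at 72.8 ± 7.19, 43.6 ± 2.27 and 26.3 ± 5.91 CPM in the order CTRL sh, CPSF1 sh1, CPSF1 sh2. It therefore repeated the steps of NDUFA4L2, including the order of the hairpins, which its choice by the highest r in these same libraries favours. Among the lowest were MAF, a leucine zipper transcription factor (-0.962), and KIF5C (-0.942). Among the listed HIF targets the highest were P4HA1 (0.849), and PDK1 (0.847), at ranks 165 and 170. The points share lines, groups and libraries, and the separation of LNCaP knockdown from the rest sets much of r, so these values describe a likeness and carry no test. Without subtracting the control mean, 2 of the 5 genes, ATG16L2 and PPFIA4, were again among the 5 highest.

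For NDUFA4 the likest profiles were those of MYL12B, a myosin light chain (r = 0.915), ACTB, beta-actin (0.909), UQCR11, a subunit of complex III (0.904), SNX3 (0.904) and PSMA2, of the proteasome (0.903), and the least like were CHDH, choline dehydrogenase (-0.936), FAM101B (-0.932) and ZFP90 (-0.923). MYL12B was at 227.0 ± 6.66, 275.1 ± 8.43 and 249.8 ± 8.85 CPM in LNCaP and at 271.4 ± 6.75, 242.6 ± 7.09 and 266.7 ± 5.98 CPM in LNCaP95 with CTRL sh, CPSF1 sh1 and CPSF1 sh2, the same up and down as NDUFA4 and within similar bounds. None of the 5 highest was among the 5 highest without subtracting the control mean. For a gene that moves as little as NDUFA4, the choice of likest genes thus depends on the scale.

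The third paralog, C15orf48, was close to absent. It had 1, 0 and 1 counts in LNCaP CTRL sh, 2, 4 and 1 with CPSF1 sh1 and 4, 4 and 5 with CPSF1 sh2. In LNCaP95 it had 1, 2 and 1 counts with CTRL sh, 14, 5 and 10 with CPSF1 sh1 and 13, 7 and 2 with CPSF1 sh2. In 22Rv1 it had 3, 5 and 7 counts with CTRL sh, 12, 13 and 7 with CPSF1 sh1 and 11, 7 and 13 with CPSF1 sh2. C15orf48 was under the filter everywhere, at 1.24 CPM or less, and was not compared between groups.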

How the data were processed

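RNA was sequenced from 27 libraries (3 cell lines, 3 hairpins, 3 replicates). The authors prepared stranded mRNA libraries, aligned paired-end reads to GRCh37 with HISAT2 2.1.0 and counted exons in reverse-stranded mode with Subread featureCounts (2.0.3 in the submitters' processing notes; the paper gives another version), using an Ensembl annotation. The deposited values are raw counts per protein-coding gene, without normalization. Whether duplicates were removed is not given in the sources used here. All count columns matched a sample.

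Totals per library were 8515624 to 15904518. Replicates of a group differed by a chi-square of 1.38 to 6.98 per degree of freedom, above the 1 of counting error alone, so every library was counted once. The study's methods call the replicates biological.

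Each line was fitted in edgeR 4.0.16 (R 4.3.3) on genes above 2 CPM in all 9 libraries, with TMM, the quasi-likelihood F-test (legacy form) and Benjamini-Hochberg adjustment over all genes, at 0.05, as in the study's methods. CTRL sh was set against both hairpins pooled, and in 3-group fits against each. Differences between lines came from 1 fit of 9 groups. SE is the log2 fold change over the root of F. The members, the gene lists and these tests were chosen with earlier results of these data known. Named genes are the paralogs, CPSF1, the 2 nearest genes on each side, list members and the 5 likest and 3 least like genes per paralog. Some of the named genes are not reported here. FAM65B and NMB were named after their values were seen, as the next lowest. Coordinates and sequences came from the deposited table, GRCh37 and GENCODE v44lift37, and promoter shares from RefSeq (GRCh38.p14). The fit was tested on simulated data. Alternatives were DESeq2 1.42.0, edgeR 4 quasi-likelihood, RLE or unscaled library sizes, other filters, hairpins averaged, the replicate number as a block, other pseudocounts of the ratio and each library left out. The length of 1 transcript per gene was added after seeing the data.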

Additional observations from a re-analysis of the deposited data

Results flagged for a closer look

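The gap between the hairpins in NDUFA4L2 differed between lines by a test of the difference itself, in the edgeR fit of all 27 libraries. It was lower in LNCaP95 than in LNCaP by -2.41 on the log2 scale (adjusted p = 1.44e-05) and lower in 22Rv1 than in LNCaP by -2.39 (adjusted p = 2.90e-04). The LNCaP and 22Rv1 libraries in that fit also picked NDUFA4L2, by a comparison that pooled the hairpins, and what this does to the p-values was not tested. The 3 CPSF1 sh2 libraries all lay above the 3 CPSF1 sh1 libraries in LNCaP and all below them in the other lines. Hairpin groups that do not overlap, in either direction, were found for 30.5% of genes in LNCaP, 49.3% in LNCaP95 and 28.6% in 22Rv1. For NDUFA4 the same difference was 0.23 between LNCaP95 and LNCaP (adjusted p = 0.00499).

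The knockdown effect on NDUFA4 differed between LNCaP95 and LNCaP by -0.29 (adjusted p = 1.63e-05), between 22Rv1 and LNCaP by -0.15 (adjusted p = 0.0167) and between 22Rv1 and LNCaP95 by 0.14 (adjusted p = 0.0163). These sizes are small beside those of NDUFA4L2, and what sets any of these differences was not tested.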

How the results depend on the processing

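For NDUFA4L2, the control level of LNCaP95 against LNCaP was -0.47 with DESeq2 and -0.31 with the replicate block, and is given without a test. For NDUFA4, the knockdown effect in LNCaP95 was -0.035 with unscaled library sizes (adjusted p = 0.502) and -0.12 with the replicate block (adjusted p = 0.0711), and its difference between 22Rv1 and LNCaP95 was 0.070 with unscaled library sizes. The hairpin difference of NDUFA4 in LNCaP was -0.12 with DESeq2 (adjusted p = 0.0716), -0.11 with unscaled library sizes (adjusted p = 0.0507) and -0.11 with genes of at least 1 count (adjusted p = 0.0565), and in LNCaP95 it was 0.097, 0.11 and 0.096 with unscaled library sizes, edgeR's own filter and genes of at least 1 count. The cause of these lost calls was not tested. With unscaled library sizes in LNCaP95, 1 nuclear complex IV subunit was called higher and 2 lower, 7 complex I subunits higher and 1 HIF target acting on mitochondria higher. The log2 ratio per kb of NDUFA4L2 to NDUFA4 in LNCaP95 control cells was 0.66 with 1 transcript per gene, and 1.31 in LNCaP and -1.07 in 22Rv1. Of the values under other settings, 269 were labelled unchanged, 12 weaker (a call lost), 8 moved and 1 reversed in sign. With a library left out, 525 were unchanged, 20 weaker, 11 moved, 8 reversed and 3 stronger (a call gained). For tested values, unchanged means the same direction and side of the threshold. For untested values it means a shift below the SD between replicates, and for list counts a similar number.

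With each library left out, NDUFA4L2 ranged from -4.58 to -3.96 for knockdown in LNCaP, and its hairpin difference from 1.00 to 1.72 in LNCaP, -1.16 to -0.79 in LNCaP95 and -1.14 to -0.61 in 22Rv1. Its hairpin difference between 22Rv1 and LNCaP95 ranged from -0.20 to 0.33, with no call, and its sign turned without any 1 of 6 libraries. NDUFA4 ranged from -0.14 to -0.10 for knockdown in LNCaP95 and -0.0020 to 0.071 in 22Rv1, and its hairpin difference from -0.15 to -0.094 in LNCaP, 0.096 to 0.15 in LNCaP95 and -0.070 to 0.0064 in 22Rv1. Differences between lines in NDUFA4 ranged from -0.17 to -0.11 (22Rv1 and LNCaP) and 0.12 to 0.19 (22Rv1 and LNCaP95) for knockdown, and from -0.19 to -0.11 for the hairpins (22Rv1 and LNCaP95). The log2 ratio in LNCaP95 ranged from -1.65 to -1.33. Calls of complex IV subunits ranged from 3 to 5 higher and 0 to 1 lower in LNCaP and from 0 to 1 higher and 0 to 4 lower in 22Rv1, and of complex I subunits from 2 to 9 lower in 22Rv1.

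Replicate numbers recur in each group, and deviations of same-numbered samples correlated at -0.233 to 0.275. For LNCaP, r exceeded 0.1 for 3 of 9 same-numbered pairs, against 0 of 18 pairs with different numbers (highest 0.066). LNCaP95 had 3 of 9 against 4 of 18, and 22Rv1 had 1 of 9 against 1 of 18. Some variation may thus go with the number for LNCaP, and little sign of it was seen for the other lines. With the replicate block, calls between the LNCaP hairpins went from 725 higher and 914 lower to 967 and 1197. What same-numbered samples share was not tested. With the replicate block the ratio in LNCaP95 was -1.51 (exact p = 0.0741). NDUFA4L2 had 46 to 71 counts with CPSF1 sh1 in LNCaP, which limits the precision there.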
